A study of Mus musculus with 5 samples.

Results

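Cells make cholesterol from acetyl-CoA through the mevalonate pathway, and the transcription factors that set its output are the sterol regulatory element-binding proteins (SREBPs). When membrane sterols are plentiful, INSIG proteins hold the SREBP precursor and its escort SCAP in the endoplasmic reticulum. When sterols are scarce the precursor moves to the Golgi, is cut by a pair of proteases and enters the nucleus, where it binds sterol regulatory elements (SREs) near the start of the synthesis genes and of Insig1 itself. In regulatory T (Treg) cells, T cells that restrain immune responses and depend on the transcription factor Foxp3, the mevalonate pathway is known to be needed for suppressive function after activation.

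RNA polymerase II (Pol II) occupancy was examined at 8 genes of this system: Hmgcs1, Idi1, Fdft1, Sqle and Lss, which encode enzymes, Srebf1 and Srebf2, which encode the SREBPs, and Insig1. They were chosen by name, as 8 of the 12986 genes with a peak. The counts of a gene were summed over every merged peak whose midpoint lay in the gene or up to 3 kb upstream. This gave 44 of 56615 peaks, none of them shared with another protein-coding gene. Overlap with non-coding genes was not examined.

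Pol II was profiled by CUT&Tag, in which an antibody on chromatin directs a transposase to tag the DNA next to the protein. Nuclei came from splenic CD3+CD4+ Treg cells of 8-week-old C57BL/6 mice of pooled sex, sorted by the YFP of the Foxp3-driven Cre. To expand Treg cells, all mice had been injected over 3 days with IL-2c, in which 1 μg IL-2 is bound by 5 μg of an antibody to it, and were killed 48 hours after the last injection. Control mice (Ctrl, Foxp3CreSetd2flox/+) carried Cre and 1 floxed Setd2 allele, and knockout mice (KO, Foxp3CreSetd2flox/flox) carried Cre and 2, so that Ctrl cells too had Cre and a floxed allele. Setd2 writes H3K36me3, a histone mark of transcribed gene bodies, and the comparison asks whether its loss changed Pol II occupancy at these genes. There were 2 Ctrl and 2 KO libraries of 80000 nuclei each, from pools of 2 mice. The study counted each library as a biological replicate, but whether each had its own pool of mice is not clear from the sources used here, so p-values may leave out the spread between mice. The IgG library of the series was not analysed here.

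Total counts in peaks ranged from 4489646 (KO 2) to 13351007 (KO 1), and the library numbered 1 was the deeper one in each group. Counts at Setd2 itself were 512, 518, 455 and 569.5 after normalization in Ctrl 1, Ctrl 2, KO 1 and KO 2. This does not check the deletion, since the deleted part of the gene is not given in the sources used here. All 7 Treg and T cell markers examined (Foxp3, Il2ra, Ctla4, Ikzf2, Tnfrsf18, Cd4 and Cd3e) had peaks, with summed normalized counts of 26840 to 32410 per library. Single markers ranged from Tnfrsf18 (2 peaks, 185 to 228.5) to Ikzf2 (60 peaks, 14460 to 17910), which made up most of the sum. None of the 4 CD8 T and NK cell markers had a peak (Cd8a, Cd8b1, Ncr1 and Klrb1c). Of 4 B cell markers 1 had a peak, Cd79a, at 67.3 to 123 normalized counts. Of 7 myeloid and erythroid markers 2 had peaks, Spi1 and Tyrobp, which together gave 532 to 583. Spi1 alone (5 peaks) had 401.5 to 469, between Tnfrsf18 and Cd3e (4 peaks, 485 to 578). In such bulk samples, fewer cells of a type and less Pol II per cell cannot be told apart.

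The sequences before the starts of 4 of the genes are given with matches to the letters of sites of SREBPs and their usual partners. The windows are from RefSeq (GRCm38.p6, the assembly that mm10 denotes), run from 250 bases before to 50 after a start, and were found for 6 of the 8 genes. Both strands were searched for the SRE letters TCACNCCAC, the CCAAT box letters CCAAT (a site of NF-Y), the GC box letters GGGCGG (a site of Sp1) and the E-box letters CACGTG. No printed match overlaps another. The 4 stretches below are 5′ to 3′ and end before the first annotated start, and matches on either strand are in capitals.

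Hmgcs1, chr13:119690101-119690350, plus strand: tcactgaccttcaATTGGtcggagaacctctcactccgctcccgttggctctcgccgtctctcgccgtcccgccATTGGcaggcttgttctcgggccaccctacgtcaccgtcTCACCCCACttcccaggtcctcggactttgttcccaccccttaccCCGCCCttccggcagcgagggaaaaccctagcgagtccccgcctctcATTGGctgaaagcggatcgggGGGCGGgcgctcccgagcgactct

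Insig1, chr5:28071162-28071362, plus strand: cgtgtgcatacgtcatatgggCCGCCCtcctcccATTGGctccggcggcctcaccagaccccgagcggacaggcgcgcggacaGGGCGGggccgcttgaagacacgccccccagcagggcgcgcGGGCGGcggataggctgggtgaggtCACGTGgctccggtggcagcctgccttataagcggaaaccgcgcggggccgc

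Lss, chr10:76531355-76531587, plus strand: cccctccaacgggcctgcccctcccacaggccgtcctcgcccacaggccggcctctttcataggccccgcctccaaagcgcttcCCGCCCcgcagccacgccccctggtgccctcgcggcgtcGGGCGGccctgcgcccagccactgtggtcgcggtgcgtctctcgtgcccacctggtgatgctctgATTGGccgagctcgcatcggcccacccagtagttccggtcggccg

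Srebf2, chr15:82147019-82147180, plus strand: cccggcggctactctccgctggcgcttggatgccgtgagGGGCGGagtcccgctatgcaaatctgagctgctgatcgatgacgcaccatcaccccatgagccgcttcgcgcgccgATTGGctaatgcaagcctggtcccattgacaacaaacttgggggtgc

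Over the whole windows, Hmgcs1 held 1 match to the SRE letters, 137 bases before the start, together with 4 CCAAT boxes and 3 GC boxes. It was the one gene of the 6 with a match to the SRE letters, which were found in 1.24% of all 32851 windows. Insig1 held 1 CCAAT box, 3 GC boxes and 1 E-box. Lss held 1 CCAAT box and 2 GC boxes, and Srebf2 1 CCAAT box and 5 GC boxes. Idi1 and Srebf1 are not printed. Idi1 held 2 CCAAT boxes and 1 GC box, none of them before its first annotated start. For Srebf1, the window of the start at chr11:60222581 held 1 CCAAT box and no GC box. The window at 60220627 held 3 GC boxes and no CCAAT box, and that at 60210471 held 1 CCAAT box and 2 GC boxes. CCAAT letters were found in 37.4% of all windows, GC box letters in 35.7% and E-box letters in 7.15%. These are matches to letters, and a missing match says only that the letters are not in the window. Every start used lay inside a Pol II peak.

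No change in Pol II occupancy with the loss of Setd2 was detected at any of the 8 genes. In the DESeq2 fit over all genes with a peak, 0 of the 8 passed an adjusted p of 0.05, beside 0.100% of all genes. At an unadjusted p of 0.05, DESeq2 and edgeR each called 0 of the 8. The shares of all genes at that p were 2.87% in DESeq2 and 4.87% in edgeR. Every adjusted p of the 8 was 1.00, and their unadjusted p ran from 0.206 (Hmgcs1) to 0.868 (Sqle). Of the 8 log2 fold changes 4 were above and 4 below 0, with a median of 0.01, and the median of all genes was -0.00. Both KO libraries lay on one side of both Ctrl libraries in 1 of the 8 genes, beside 34.3% of all genes.

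**Figure D1:**
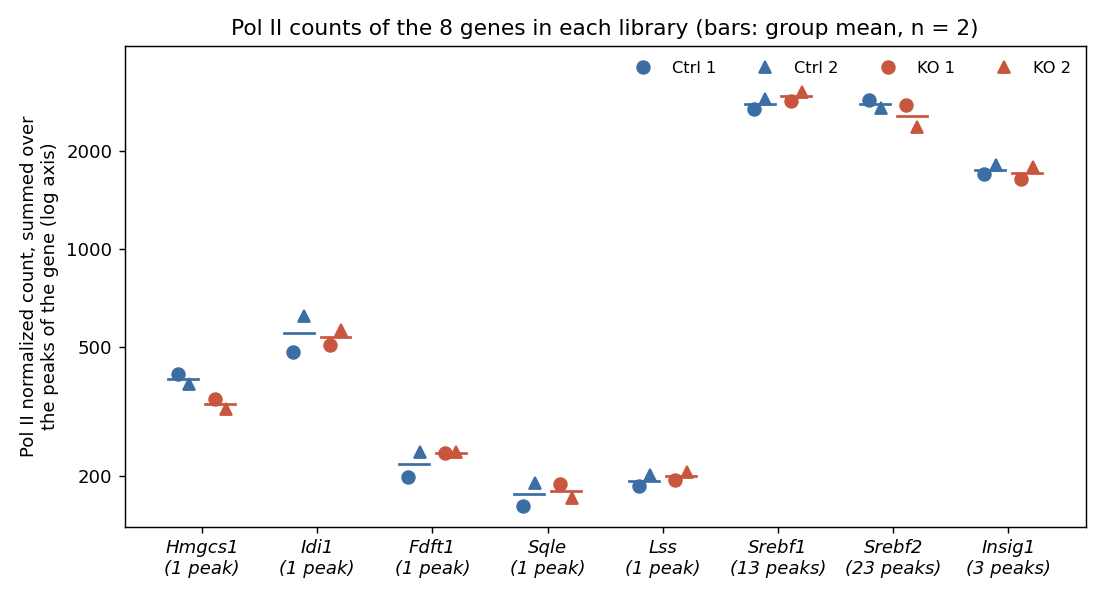
Normalized Pol II counts of each gene, summed over its peaks (y axis, log scale) in the 2 Ctrl (blue) and 2 KO (red) libraries, with circles for replicate 1, triangles for replicate 2 and a bar at each group mean. The KO libraries of Hmgcs1 lie below its Ctrl libraries, and the groups of the other 7 genes overlap.

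Hmgcs1 encodes the cytosolic synthase that makes HMG-CoA early in the pathway. Its single peak (chr13:119689837-119690953) covered the start of the gene, with the SRE letters inside it. Normalized counts, that is counts divided by the DESeq2 size factor of the library, were 411 (Ctrl 1), 383 (Ctrl 2), 345 (KO 1) and 322 (KO 2). Both KO values were under both Ctrl values. The log2 fold change was -0.25 ± 0.20 (SE, n = 2 per group, DESeq2 adjusted p = 1.00), so the 95% interval of the fold ran from 0.643 to 1.10. The difference did not pass the test.

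Idi1 encodes the isomerase that interconverts the isoprenoid building blocks. Its peak, chr13:8885354-8886234, also covered a start. The normalized counts were 480.1 (Ctrl 1), 622 (Ctrl 2), 505.5 (KO 1) and 564 (KO 2). The KO values lay between the 2 Ctrl values, and the log2 fold change was -0.04 ± 0.19 (DESeq2 adjusted p = 1.00, 95% interval of the fold 0.750 to 1.26).

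The other 3 enzymes act in the sterol arm. Fdft1 encodes squalene synthase, the first step committed to sterols. Its peak (chr14:63177627-63178290) had 199 and 237 normalized counts in Ctrl 1 and Ctrl 2, and 236 and 237 in KO 1 and KO 2. Only Ctrl 1 stood lower than the rest. The log2 fold change was 0.13 ± 0.24 (DESeq2 adjusted p = 1.00, 95% interval of the fold 0.789 to 1.51).

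Sqle encodes squalene epoxidase, the first oxygen-requiring step of the pathway. At its peak, chr15:59314496-59315563, the counts were 162 (Ctrl 1), 191 (Ctrl 2), 189 (KO 1) and 171 (KO 2), so both KO values fell within the range of Ctrl. The log2 fold change was 0.04 ± 0.26 (DESeq2 adjusted p = 1.00, 95% interval of the fold 0.721 to 1.48). Lss, whose product closes the sterol rings to give lanosterol, had a single peak at chr10:76530985-76531803 with 186, 202, 194 and 206 normalized counts in Ctrl 1, Ctrl 2, KO 1 and KO 2. The groups overlapped, and the log2 fold change was 0.05 ± 0.25 (DESeq2 adjusted p = 1.00, 95% interval of the fold 0.735 to 1.45). The raw counts behind these peaks were few, 99 to 399 per library for Fdft1, Sqle and Lss, which leaves the intervals wide.

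The 3 regulatory genes carried more signal in sum and had narrower intervals. Srebf2 encodes SREBP-2, the main activator of cholesterol synthesis genes. Its 23 peaks summed to 2868 normalized counts (Ctrl 1), 2702 (Ctrl 2), 2756 (KO 1) and 2373 (KO 2). KO 2 was the lowest of the 4, while KO 1 lay between the Ctrl libraries. The log2 fold change was -0.12 ± 0.13 (DESeq2 adjusted p = 1.00), and the 95% interval of the fold was 0.771 to 1.10. Without KO 2 the log2 fold change was -0.014, and without KO 1 it was -0.23.

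Srebf1 encodes SREBP-1, better known for the control of fatty acid synthesis. Its 13 peaks gave 2683, 2883, 2850 and 3038 normalized counts in Ctrl 1, Ctrl 2, KO 1 and KO 2. The groups overlapped, since KO 1 was just under Ctrl 2. The log2 fold change was 0.08 ± 0.12 (DESeq2 adjusted p = 1.00, 95% interval of the fold 0.893 to 1.25).

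Insig1 encodes the sterol-sensing retention protein and is itself an SREBP target. Its 3 peaks summed to 1696 (Ctrl 1), 1804 (Ctrl 2), 1641 (KO 1) and 1786 (KO 2). KO 1 was the lowest library and KO 2 lay between the Ctrl libraries, so the groups overlapped. The log2 fold change was -0.03 ± 0.13 (DESeq2 adjusted p = 1.00, 95% interval of the fold 0.816 to 1.17).

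**Figure D2:**
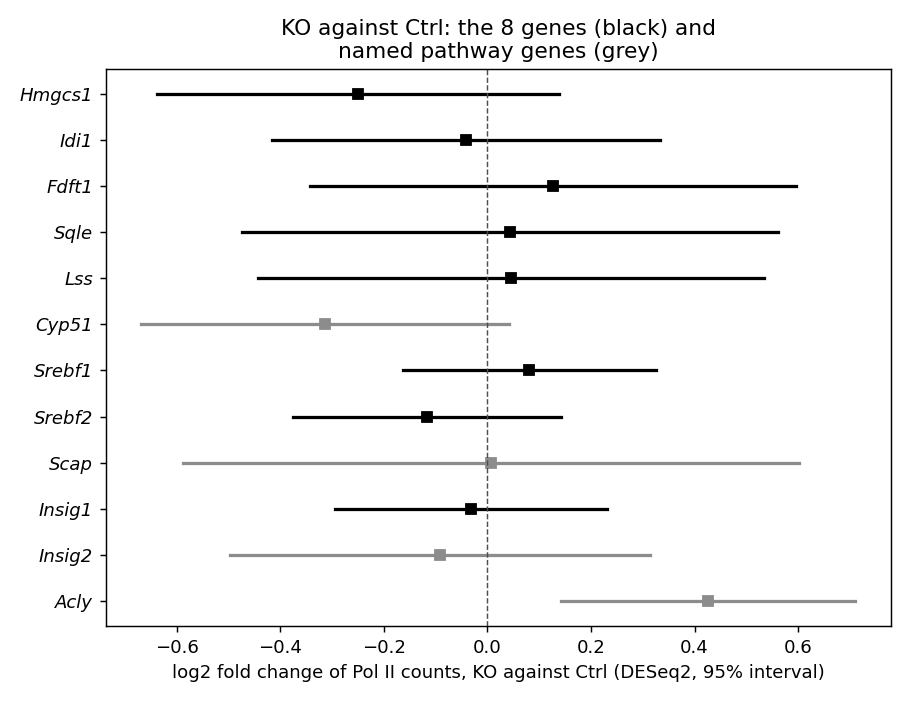
DESeq2 log2 fold changes of Pol II counts, KO against Ctrl (x axis), with 95% intervals, for the 8 genes (black) and for the 4 named genes of the wider pathway (grey). All 8 black intervals cross 0, and Acly is the one grey interval that does not.

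Pol II levels at the promoters differed more between the genes than between the genotypes. Counts per kb of peak were compared for the promoter peak with the most counts of each gene. Promoter means a midpoint within 3 kb of any annotated start. These peaks ran from 664 bp (Fdft1) to 4548 bp (Insig1). Dividing by length does not make broad and narrow peaks fully comparable. Idi1 stood highest, with 628.6 ± 99.7 in Ctrl and 604 ± 37.5 in KO (SD, n = 2). This placed it at the 99.3 percentile of the 12058 genes with a promoter peak, whose median was 177 per kb in Ctrl.

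Hmgcs1 followed with 358 ± 26.8 per kb in Ctrl and 297 ± 19.1 in KO, at the 91.4 percentile. Fdft1 had 329.6 ± 32.8 and 354 ± 3.96 (88.8 percentile), and Insig1 301.5 ± 6.37 and 287 ± 7.76 (85.4 percentile). The 4 libraries of Hmgcs1 overlapped those of Fdft1 and of Insig1, so its order against them was not resolved. Fdft1 and Insig1 lay apart by little, with a lowest Fdft1 library of 306.4 and a highest Insig1 library of 306.0 per kb. Lss came next at 238 ± 8.03 and 243 ± 6.23 per kb (72.1 percentile), apart from the genes on either side of it.

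Srebf2 had 211 ± 16.9 per kb in Ctrl and 182 ± 39.1 in KO (63.8 percentile), and Sqle 166 ± 15.04 and 168 ± 14.2 (44.9 percentile). Their libraries overlapped each other. Srebf1 was lowest at 134 ± 5.59 and 141 ± 4.12 (28.9 percentile), below every library of the other 7 genes. Its strongest promoter peak by counts (chr11:60216826-60221238) was 4413 bp long and lay over internal starts. The shorter peak over its outermost start, chr11:60222513-60223480, was denser, at 377 per kb in Ctrl and 311 per kb in KO. The rank of Srebf1 thus depends on which of its peaks is used.

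**Figure D3:**
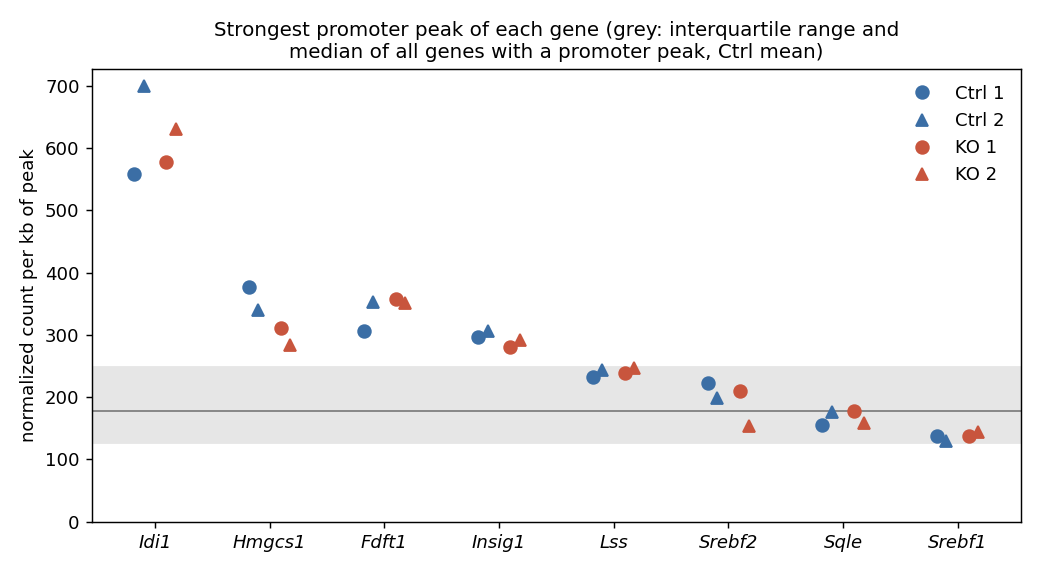
Normalized counts per kb of the strongest promoter peak of each gene (y axis) in each library, ordered by the Ctrl mean, with the median (line) and the interquartile range (grey band) of all genes with a promoter peak. Idi1 is the highest of the 8 in all 4 libraries, and Srebf1 the lowest.

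The 5 enzyme genes had a peak over the start only and none called further into the gene, whereas Srebf1 and Srebf2 carried signal along their length. Of the 44 peaks 24 were promoter peaks, 15 covered an annotated start, 26 touched an exon of their gene and 18 did not. No peak was called in DESeq2 at an adjusted p of 0.05, over the whole table or among the 44 (0.00% of all peaks). At an unadjusted p of 0.05 DESeq2 called 0 of the 44, beside 1.53% of all peaks, and edgeR called 2, both in Srebf2, beside 3.63% of all peaks. The groups did not overlap in 12 of the 44 peaks, or 27.3%, beside 32.3% of all peaks. KO was above Ctrl in 5 of these 12 and below in 7.

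Insig1 is a short gene, and its strongest peak, chr5:28069854-28074401, ran over the start and much of the gene. Normalized counts there were 1351 and 1392 in Ctrl 1 and Ctrl 2, and 1279 and 1328 in KO 1 and KO 2. Both KO libraries were below both Ctrl libraries, with a log2 fold change of -0.07 ± 0.18 (DESeq2 adjusted p = 1.00). The other 2 peaks of the gene had log2 fold changes of 0.21 and -0.03.

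Along Srebf1, 9 of 13 peaks were higher in KO and 4 lower, with log2 fold changes from -0.34 to 0.42 and a lowest p of 0.234. The strongest promoter peak (chr11:60216826-60221238) had 607 normalized counts (Ctrl 1), 572 (Ctrl 2), 609.6 (KO 1) and 635 (KO 2). Both KO values were above Ctrl, by 0.08 ± 0.20 on the log2 scale (DESeq2 adjusted p = 1.00). The peak over the outermost start (chr11:60222513-60223480), where the RefSeq start at the 5′ end of the gene lies, went the other way, with 339 and 389.9 in Ctrl 1 and Ctrl 2, and 279 and 324 in KO 1 and KO 2. Its log2 fold change was -0.28 ± 0.24 (DESeq2 adjusted p = 1.00). In a setting that was not planned, only peaks near the outermost start were summed. The log2 fold change of Srebf1 then turned from 0.08 to -0.20 (DESeq2 adjusted p = 1.00). The direction thus depended on which of its 12 annotated starts were counted, and neither value passed the test.

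Along Srebf2, 10 peaks were higher in KO and 13 lower, with log2 fold changes from -0.94 to 0.82. The strongest promoter peak, chr15:82146134-82149010, covered the start and had 642 normalized counts (Ctrl 1), 573 (Ctrl 2), 602 (KO 1) and 443 (KO 2). KO 2 was lowest, and the log2 fold change was -0.21 ± 0.22 (DESeq2 adjusted p = 1.00). It was -0.0078 without KO 2 and -0.46 without KO 1.

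Between 7.3 and 18.8 kb from the start of Srebf2, 7 peaks lay in intronic sequence and all 7 had a log2 fold change under 0, from -0.54 to -0.08. Their summed normalized counts were 1093 (Ctrl 1), 864 (Ctrl 2), 907 (KO 1) and 550.1 (KO 2). KO 2 stood apart as the lowest, and KO 1 lay between the Ctrl libraries. Over the 14 peaks from 20.1 to 57.9 kb the sums were 1179 and 1229 in Ctrl 1 and Ctrl 2, and 1242 and 1311 in KO 1 and KO 2, with 9 peaks higher and 5 lower. The stretches were set after the values were seen, so these sums are a description.

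The peak with the lowest p of the 44 closed the first of these stretches, at chr15:82165254-82166795. Its counts were 446 (Ctrl 1), 333 (Ctrl 2), 352 (KO 1) and 179 (KO 2), for a log2 fold change of -0.54 ± 0.31 (DESeq2 adjusted p = 1.00, unadjusted p = 0.0788). The groups overlapped, and without KO 2 the log2 fold change was -0.14, while without KO 1 it was -1.13 (DESeq2 unadjusted p = 0.00307). The size of the difference rested on KO 2, the shallowest of the 4 libraries. After every library was thinned to the same total the log2 fold change was -0.51 (DESeq2 unadjusted p = 0.116). Thinning draws counts at random in proportion, which keeps the expected ratio between libraries, so an effect of depth was not tested.

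**Figure D4:**
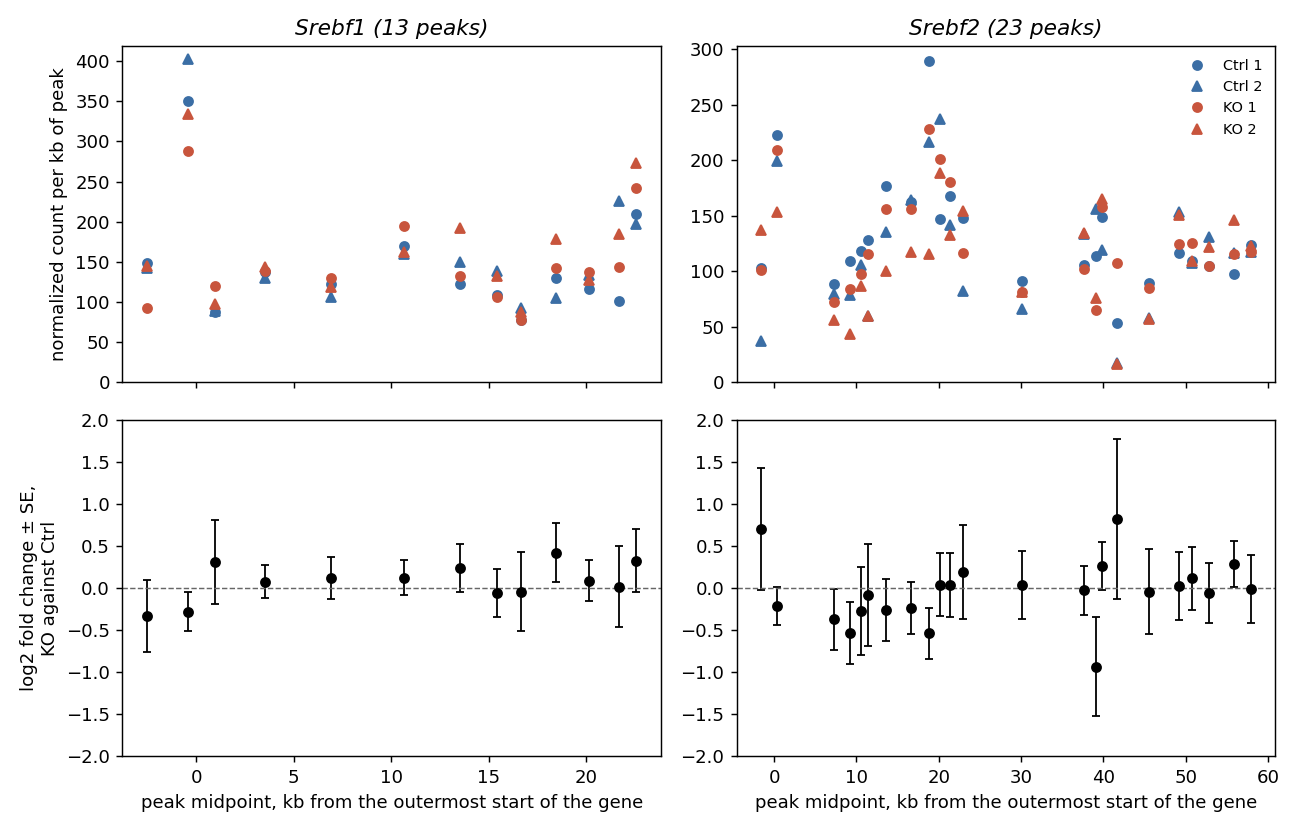
Peaks of Srebf1 (left) and Srebf2 (right) by distance of their midpoint from the outermost start of the gene in kb (x axis). The upper panels give normalized counts per kb of peak in each library and the lower panels the log2 fold change ± SE, KO against Ctrl, with 7 adjacent Srebf2 peaks between 7.3 and 18.8 kb under 0.

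The balance along a gene was compared within each library, where depth cancels. Each gene was split at its middle into a 5′ part and a 3′ part. The 5′ part of Srebf2 held 12 peaks, among them the 7 between 7.3 and 18.8 kb, so it is not the start alone. The log2 ratio of counts in the 5′ part to the 3′ part of Srebf2 was 1.00 (Ctrl 1), 0.70 (Ctrl 2), 0.78 (KO 1) and 0.15 (KO 2). The groups overlapped, and KO differed from Ctrl by -0.38 ± 0.31 (limma adjusted p = 0.998). The difference was -0.07 without KO 2 and -0.70 without KO 1. This comparison was chosen after the peaks of Srebf2 had been seen. Srebf1 and Insig1 each gave -0.11 (limma adjusted p = 0.998). Over the 5379 genes with peaks in both parts, limma called 0.00% at an adjusted p of 0.05 and 3.66% at an unadjusted p of 0.05, and the median difference was -0.07.

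The share of counts in promoter peaks was 100% for Insig1 and the 5 enzymes, by the position of their peaks. For Insig1 this counted both of its annotated starts. With starts within 1 kb its shares were 83.6%, 81.8%, 83.6% and 81.1% in Ctrl 1, Ctrl 2, KO 1 and KO 2. For Srebf2 the share within 3 kb was 26.5% in Ctrl 1 (95% Wilson interval 25.2 to 27.9) and 26.0% in Ctrl 2 (24.1 to 28.0). It was 26.7% in KO 1 (25.4 to 28.0) and 25.1% in KO 2 (22.9 to 27.5). The intervals, which cover counting error only, overlapped throughout. KO differed from Ctrl by -0.38 percentage points (exact permutation test, two-sided, p = 1.00). For Srebf1 the shares were 90.8%, 92.4%, 90.7% and 91.9% in Ctrl 1, Ctrl 2, KO 1 and KO 2, a difference of -0.33 percentage points (exact permutation p = 0.667). Counting peaks near the outermost start of Srebf1 alone, the shares were 16.3% and 17.4% in Ctrl 1 and Ctrl 2, and 13.01% and 14.5% in KO 1 and KO 2. These groups did not overlap, and KO differed by -3.07 percentage points (exact permutation p = 0.333). How many of all genes show no overlap in this measure was not computed. The setting was not planned. With starts within 1 kb, which was planned, the difference for Srebf1 was -2.26 percentage points (exact permutation p = 0.667). With 2 against 2 libraries the smallest p this test can give is 0.333.

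The rest of the pathway was described with 6 lists. Of 56 further genes 52 had a peak, and 0 of these 52 passed an adjusted p of 0.05 in DESeq2. At an unadjusted p of 0.05, DESeq2 called 1 of the 52 (Acly), beside 2.87% of all genes, and edgeR 5, beside 4.87% of all genes. In the mevalonate arm, from acetyl-CoA to farnesyl diphosphate, 0 of 8 genes passed an unadjusted p of 0.05, 3 were higher and 5 lower, and the median log2 fold change was -0.12. In the sterol arm 0 of 13 passed, with 7 higher, 6 lower and a median of 0.03. Among the 7 genes of SREBP control 0 passed, with 3 higher, 4 lower and a median of -0.03.

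Cyp51, the lanosterol demethylase, had 528.5 and 562 normalized counts in Ctrl 1 and Ctrl 2 and 461 and 412 in KO 1 and KO 2. Both KO libraries of Cyp51 were below Ctrl, as they were for Hmgcs1. The groups did not overlap in 23 of the 52 further genes (44.2%), beside 34.3% of all genes. KO was above Ctrl in 12 of these 23 and below in 11. The log2 fold change of Cyp51 was -0.31 ± 0.18 and did not pass in DESeq2 (adjusted p = 1.00). After thinning to equal totals it was -0.19.

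Scap, the SREBP escort, had 154, 283, 184 and 254.5 normalized counts in Ctrl 1, Ctrl 2, KO 1 and KO 2, with KO inside the wide range of Ctrl, and a log2 fold change of 0.01 ± 0.30. Insig2, the second INSIG protein, had 321 and 342 in Ctrl and 300.0 and 324 in KO, with a log2 fold change of -0.09 ± 0.21 that ran from -0.14 without KO 2 to -0.03 without KO 1 and was -0.18 after thinning to equal totals. The groups overlapped in both genes.

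In the list of uptake, storage and efflux 0 of 12 genes passed an unadjusted p of 0.05, with 8 higher, 4 lower and a median log2 fold change of 0.08. Among genes of isoprenoid use, such as the prenyltransferases, 0 of the 12 with a peak passed, with 6 higher, 6 lower and a median of 0.00. Pggt1b and Chm of that list, and Scd1 and Fads2 of fatty acid synthesis, had no peak.

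Fatty acid synthesis, the branch tied to SREBP-1, held the single gene past an unadjusted p of 0.05. Of its 8 genes with a peak 5 were higher and 3 lower in KO, with a median log2 fold change of 0.20. Acly encodes ATP-citrate lyase, which makes cytosolic acetyl-CoA for both sterols and fatty acids. Its 12 peaks summed to 891 normalized counts (Ctrl 1), 954 (Ctrl 2), 1209 (KO 1) and 1269 (KO 2). Both KO libraries were above both Ctrl libraries, and the log2 fold change was 0.43 ± 0.14 (DESeq2 unadjusted p = 0.0033), but over all genes the adjusted p was 0.75, so Acly was not called.

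**Figure D5:**
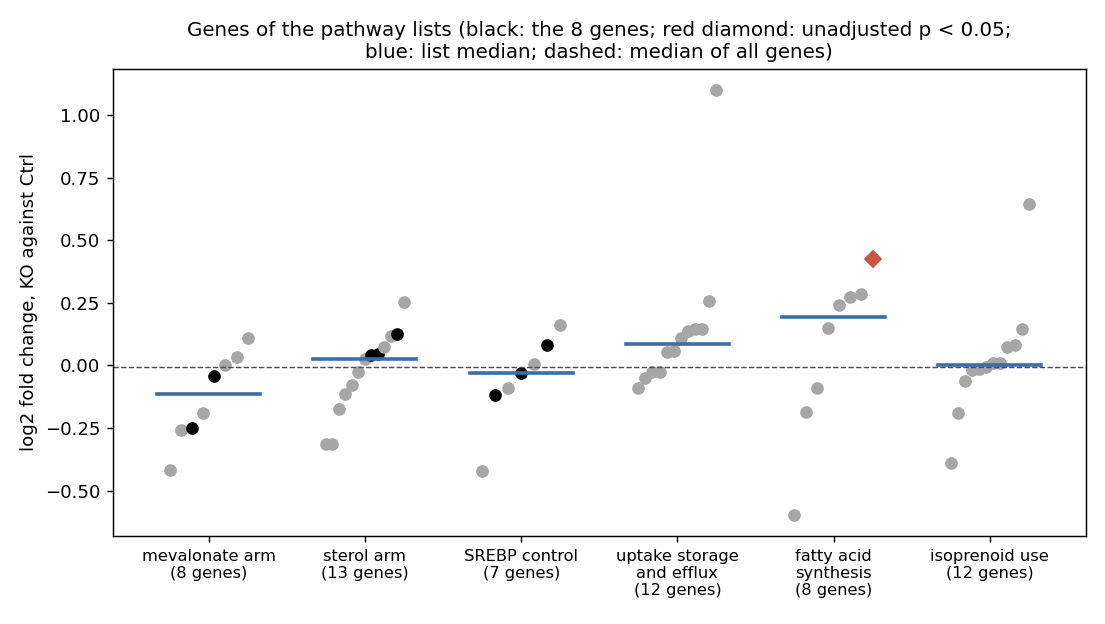
DESeq2 log2 fold change, KO against Ctrl (y axis), of each gene with a peak in the 6 pathway lists, with the 8 genes in black, Acly as a red diamond, the median of each list in blue and the median of all genes as a dashed line. The points of each list spread to both sides of 0, and the list medians lie between -0.12 and 0.20.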

How the data were processed

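Pol II CUT&Tag counts of 2 Ctrl and 2 KO libraries were analysed. The authors trimmed the reads, mapped them to mm10 with Bowtie2, kept unique reads, removed duplicates, called peaks with MACS2 against IgG, merged them with bedtools and deposited raw counts per merged peak, without normalization. Tool versions were not given in the sources used here. Peaks were thus selected on the libraries compared. All 21 chromosomes ended within GRCm38, and 0 columns lacked a sample.

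Peaks were assigned by their midpoint to protein-coding and long non-coding genes of GENCODE vM21 or the 3 kb upstream (47582 of 56615 peaks, 84.0%). A peak of a protein-coding gene was not also assigned to a non-coding gene. CUT&Tag reads carry no strand. Counts were tested per gene and per peak, over the whole table, with the DESeq2 1.42.0 Wald test (R 4.3.3), which the study used, with genotype as the only term, two-sided, with Benjamini-Hochberg adjustment. Intervals are the log2 fold change ± 1.96 SE. The size factors of Ctrl 1, Ctrl 2, KO 1 and KO 2 were 1.43, 0.718, 1.69 and 0.578 for genes. Ratios of the 5′ to the 3′ part of a gene were compared with limma 3.58.1 (0.5 added to each sum). Scripts were tested on simulated data. Alternatives were edgeR 4.0.16, other scalings, a mean count of at least 10, thinning, other choices of peaks, a replicate term and leaving out each library. Counts come from amplified libraries, so intervals of shares cover counting error only.

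The 8 genes and the lists were chosen with earlier results of these data known. Named in full were the 8 genes, their strongest promoter peaks, any of their peaks at an unadjusted p of 0.05 (there were 0), Cyp51, Scap, Insig2 and any list gene at that p. Some further genes of this rule are not reported here. The peak with the lowest p and the peak over the outermost start of Srebf1 were added after their values were seen. The setting with peaks near the outermost start only was not planned.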

Additional observations from a re-analysis of the deposited data

How the results depend on the processing

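Wherever an adjusted p was given, none of the 8 genes and none of their 44 peaks passed 0.05 under an alternative, and no gene of the 8 reached an unadjusted p of 0.05. There were 15 alternatives for Srebf1 and Srebf2 and 14 for the other 6 genes, which have no gene body peak, and 10 for peaks. In 5 cases, all with the replicate block (Hmgcs1, Sqle, Idi1, Fdft1 and Lss), DESeq2 gave no adjusted p. For the 8 genes, 106 of 114 alternative values kept their direction and 8 changed it. Of these, Srebf1 with peaks near its outermost start only gave -0.20, and the other 7 left out a library. Without 1 library, log2 fold changes ranged from -0.30 to -0.19 for Hmgcs1, -0.075 to 0.16 for Sqle, -0.22 to 0.15 for Idi1, 0.00 to 0.25 for Fdft1, -0.091 to 0.030 for Insig1, 0.03 to 0.13 for Srebf1, -0.23 to -0.01 for Srebf2 and -0.012 to 0.10 for Lss, the lone library being assumed to vary like the other group. Scap gave -0.0015 with peaks of 1 gene and -0.38 to 0.49 without 1 library. The cause of these turns was not tested.

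Genes called at an adjusted p of 0.05 numbered 13, against 0 in edgeR, 3 with gene body peaks, 8 with the outermost start, 7 with peaks of 1 gene, 7 after thinning and 0 to 3 without 1 library. At an unadjusted p of 0.05 there were 373, against 633 in edgeR, 170 with gene body peaks, 232 with the outermost start and 107 to 248 without 1 library. Peaks called numbered 0, against 27 in edgeR and 0 to 5 without 1 library, and at an unadjusted p 864, against 2057 in edgeR and 169 to 728 without 1 library.

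Peaks of the 8 genes at an unadjusted p of 0.05 numbered 0, against 2 in edgeR and 0 to 2 without 1 library, all in Srebf2 (chr15:82155604-82157180 and chr15:82165254-82166795). Thinning every library to the same total, which keeps the expected ratio between libraries, left the latter at -0.51 on the log2 scale. Genes of the lists at that p numbered 1 in edgeR for each of the mevalonate arm (Mvk), the sterol arm (Cyp51), uptake, storage and efflux (Abca1) and isoprenoid use (Fnta), names taken after their values were seen. Without 1 library they numbered 0 to 2 for fatty acid synthesis and 0 to 1 for isoprenoid use. Acly stayed above 0 in all 15 alternatives, from 0.20 to 0.47. List medians without 1 library ranged from -0.21 to -0.08 for the mevalonate arm, 0.06 to 0.14 for uptake, storage and efflux, -0.037 to 0.059 for the sterol arm, -0.091 to 0.030 for SREBP control, 0.055 to 0.25 for fatty acid synthesis, -0.027 to 0.015 for isoprenoid use and -0.072 to 0.12 for the 8 genes. Without 1 library the promoter share difference ranged from -1.12 to 0.46 percentage points for Srebf1 and -1.17 to 0.41 for Srebf2. With starts within 1 kb it was -2.26 and -1.31, and with the outermost start -3.07 and -0.79, for Srebf1 and Srebf2. Without 1 library the difference between the 5′ and 3′ parts from -0.26 to 0.028 for Srebf1 and -0.70 to -0.07 for Srebf2.

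Libraries share only a replicate number, and the deviations of same-numbered libraries from their group means correlated at 0.37 over genes and 0.23 over peaks, with the deeper library numbered 1 in both groups. With the replicate block 115 genes and 25 peaks were called. An unadjusted p of 0.05 was reached by 587 of 12986 genes and by 911 of 56615 peaks. None of the 8 genes reached that unadjusted p, and the 3 with an adjusted p (Srebf1, Srebf2 and Insig1) were not called. With the block, 1 of the 44 peaks of the 8 genes reached an unadjusted p of 0.05 (Srebf2, chr15:82165254-82166795). So did 2 genes of fatty acid synthesis (Acly and Fasn, named after their values were seen).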
